A study of Mus musculus with 36 samples.

Results

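Tumour CD8+ T cells of GABA-treated *muMt*-/- mice were compared with those of WT mice. The 12 libraries, 6 in each group, were chosen by their column names in the deposited table, out of 36 libraries in the series. MC38 is a mouse colon carcinoma line, and it was inoculated into the skin of the flank. On day 7 after inoculation, CD45+TCRβ+CD8+ cells were sorted from the tumour, and 100 cells from each mouse made 1 library. Molecules were barcoded before amplification, so that the values are numbers of molecules per gene. The series also holds 18 libraries of tumour-associated macrophages (TAMs) and 6 libraries of CD8+ T cells from *muMt*-/- mice without GABA, which served here for the estimate of spread and for values set beside the comparison.

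The GABA-treated mice carried the *muMt* mutation on both alleles on the C57BL/6J background, and they had a pellet under the skin that released GABA from before the tumour cells were given. The mutation removes mature B cells from birth and in the whole animal, and the pellet gave GABA to the whole animal and not to the tumour alone. The WT mice had their B cells and were given no GABA. They were not without GABA, since the study detected it in WT lymph nodes, where it depended on B cells. The labels of the WT mice name no treatment. The study describes these mice, and the *muMt*-/- mice not given GABA, as mice with a placebo pellet. The study used adult mice of both sexes, without an age given for each library, and WT mice were of the C57BL/6J or C57BL/6N strain. Genotype and GABA differed together between the groups, so that their parts cannot be told apart in this comparison. The comparison asks how CD8+ T cells stood in tumours of mice that lacked B cells but received GABA, against tumours of mice with B cells.

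CD8+ T cells kill tumour cells with granzymes and perforin released from granules, and they secrete interferon-γ, TNF and chemokines that act on macrophages and other cells nearby. Activation turns on glycolysis, DNA replication and division, and long stimulation in a tumour raises inhibitory receptors. GABA is a transmitter of the nervous system that B cells can also make from glutamate, and it acts on GABA_A receptors, which are ion channels, and on GABA_B receptors, which couple to G proteins.

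WT replicates 1, 3, 4, 5 and 6 held 32394, 25283, 53632, 51737 and 76898 molecules, and replicate 2 was the shallowest of all libraries. GABA-treated replicates 1 to 6 held 98015, 65356, 95235, 89997, 69011 and 70569 molecules. The groups overlapped in depth, but 3 of the 6 GABA-treated libraries were deeper than every WT library. Mean depth was 1.86 times as high in GABA-treated mice (exact permutation of the group labels, both sides, p = 0.0087, adjusted for 2 tests 0.017, smallest possible p 0.0022). Genes detected per library ran from 5010 to 8475 in WT mice, with a median of 6339.5, and from 7698 to 9158 in GABA-treated mice, with a median of 8160, a ratio of means of 1.28 (exact permutation p = 0.017, adjusted p = 0.017). With every library thinned to the depth of the shallowest, the ratio was 1.03 (exact permutation p = 0.19). More genes detected therefore went with more molecules, and which of the steps from cells to library gave the WT libraries fewer molecules was not tested.

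The CD8 label was met in all 12 libraries. *Cd8a*, a chain of the CD8 co-receptor, had 24.0 normalized molecules in the lowest, 41.3 in the median and 55.0 in the highest WT library, and 14.6, 34.3 and 55.4 in GABA-treated mice. *Cd8b1*, its other chain, had 30.0, 45.8 and 71.2 against 17.2, 34.0 and 51.5. *Cd3e*, a signalling chain of the T cell receptor, had 8.0, 13.8 and 20.6 against 8.90, 14.3 and 19.5. No library lacked any of these genes, and for each of them the groups overlapped. Normalized molecules are counts scaled by DESeq2's size factor of each library. B cell markers were near 0 in both groups: *Ms4a1* and *Cd79a* had no molecule in any of the 12 libraries, and the summed level of 14 markers reached at most 2.21 in a WT and 2.34 in a GABA-treated library. Because the cells were sorted as T cells, this gives no check of the *muMt* genotype. *Xist*, which marks female cells, was at 0 in all 12 libraries, and the Y-linked gene *Ddx3y* was detected in all of them, which is the pattern of male mice.

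**Figure D1:**
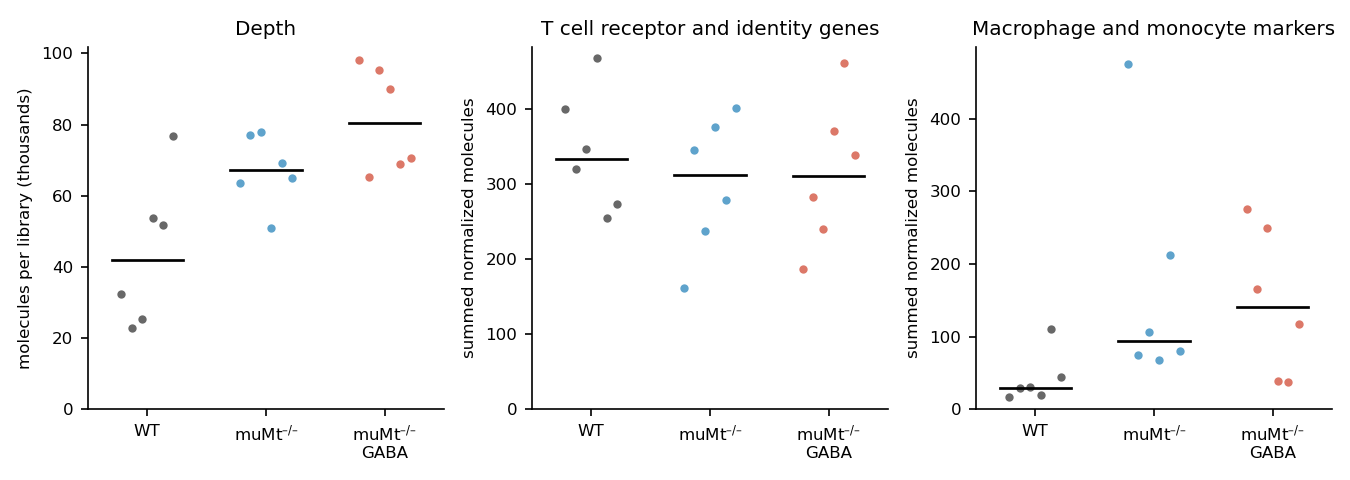
Molecules per library, summed normalized molecules of T cell receptor and identity genes and summed normalized molecules of 22 macrophage and monocyte markers, with 1 point for each library and a line at the median of each group. Of the GABA-treated libraries, 3 lie above every WT library in depth and 4 in macrophage markers, and WT replicate 5, at 111, is the WT library with the highest macrophage marker level.

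Macrophage markers and 2 libraries have to be known before the results. The summed level of 22 macrophage and monocyte markers was 16.5, 28.9, 31.0, 19.6, 111 and 45.1 in WT replicates 1 to 6. It was 276, 166, 250, 39.0, 38.3 and 117 in GABA-treated replicates 1 to 6, and 4 of these lay above every WT library. The most abundant of the markers was *Ctsd*, a lysosomal protease that T cells also express, and among the defining markers *Adgre1* and *Mrc1* had no molecule in any WT library. Measured against the mean level of the same markers in TAM libraries, the level was 1.52% to 10.2% in WT mice (median 2.94%) and 3.82% to 24.2% in GABA-treated mice (median 13.3%). In bulk libraries of this kind, fewer cells of a type and less RNA per cell cannot be told apart. GABA-treated replicate 1 stood apart from its group. It had the highest level of macrophage markers, the highest level of tumour cell and epithelial markers (29.2, the next 6.82) and the lowest level of T cell receptor and identity genes in its group (187). Of the 29.2, *Spp1* had 18.4 and *Cdh1* 10.8, and these genes were 3.89 and 2.74 times as high in TAM as in CD8+ T cell libraries. The 7 keratin and claudin genes of that list had no molecule in any of the 12 libraries. WT replicate 5 stood apart from the other WT libraries, with the most macrophage markers and the most dendritic cell markers (139, the next 42.0) and the fewest T cell receptor and identity molecules in its group (255). For several genes and lists that rest on these libraries, values with and without them are given.

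CD8+ T cells of GABA-treated *muMt*-/- mice held higher values than WT cells of *Ifng* and 3 other effector cytokine genes, of some subunits of oxidative phosphorylation and of macrophage genes, and lower values of a few genes, *Gm6654* with the smallest p. None of these passed the adjusted threshold. The edgeR quasi-likelihood F-test called 0 of 6663 genes at an adjusted p under 0.05 (0.00%), and the smallest adjusted p was 0.0975. DESeq2's Wald test called 1 gene, *Gm6654*. At an unadjusted p under 0.05, edgeR gave 459 genes (6.89%), of which 399 were higher (5.99%) and 60 were lower (0.900%) in GABA-treated mice, and the Wald test gave 222. The split depended on the scaling. With TMM, which edgeR uses, the median log2 fold change of all genes was 0.21, and with DESeq2's size factors it was 0.06. With those size factors in edgeR, 228 genes were higher (3.42%) and 123 were lower (1.85%). Fold changes below are from edgeR with TMM, with their standard error (SE), and "relative" values have the median of all genes subtracted. Without GABA-treated replicate 1 there were 314 genes, 243 higher and 71 lower, 253 of them among the 459, and without WT replicate 5 there were 522, 463 higher and 59 lower, 358 of them among the 459.

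Effector cytokines and chemokines were the T cell programme with the largest share of genes at an unadjusted p under 0.05, counting lists with at least 5 tested genes and leaving out the study's own TNF target list. Of 15 tested genes, 4 were higher (*Ifng*, *Mif*, *Csf2* and *Tnf*; 26.7%, beside 5.99% of all genes) and 0 were lower. All 4 kept an unadjusted p under 0.05 in the Wald test. With log2 molecules per library as a covariate, *Ifng* alone of the 4 kept it. The median log2 fold change of the list was 0.45, or 0.24 relative to all genes, and 10 of the 15 lay above the median of all genes. Over all alternatives the relative median ran from -0.00 with the filter filterByExpr to 0.59 with macrophage markers as a covariate. *Ifng* encodes interferon-γ, the cytokine with which T cells activate macrophages and antigen presentation, and lies on chromosome 10 from 118441046 to 118445894 (mm10, RefSeq). *Ifng* had 101 normalized molecules in the lowest, 262 in the median and 326 in the highest WT library, and 183, 398 and 754 in GABA-treated libraries. Of the GABA-treated libraries, 5 of 6 lay above every WT library, and only replicate 6, at 183, was within the WT range. The log2 fold change of *Ifng* was 0.97 ± 0.27 (SE), or 0.76 relative to all genes (edgeR, adjusted p = 0.458). Without GABA-treated replicate 1, which had 754, *Ifng* was higher by 0.67, and without WT replicate 5 by 0.88, each with an unadjusted p still under 0.05. *Ifng* is a gene of T cells here, its level in TAM libraries being 0.00132 times that in CD8+ T cell libraries. With the summed macrophage marker level as a covariate, its log2 fold change was 1.20 (edgeR, adjusted p = 0.0394, and from 3.04e-05 to 0.999 over all alternatives).

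*Mif* encodes a cytokine that many cells release. It had 22.1, 31.7 and 60.1 normalized molecules in WT and 33.1, 61.0 and 85.2 in GABA-treated libraries. The groups overlapped, with 3 GABA-treated libraries above every WT library (log2 fold change 0.89 ± 0.26, relative 0.68, edgeR adjusted p = 0.458). With log2 molecules per library as a covariate, the fold change of *Mif* was 0.03. *Csf2*, which encodes the growth factor GM-CSF, had 0.00, 4.18 and 8.0 in WT and 0.00, 7.60 and 48.9 in GABA-treated libraries. Replicates 1, 5 and 6 of the GABA-treated mice lay above every WT library, and replicate 4 had no molecule. Its log2 fold change was 1.87 ± 0.64, relative 1.66 (edgeR, adjusted p = 0.458), and 0.92 without GABA-treated replicate 1, which had 48.9, where the unadjusted p was above 0.05. *Tnf* was sparse, with 0.00, 0.00 and 2.06 in WT and 0.788, 2.61 and 5.58 in GABA-treated libraries. It was detected in all 6 GABA-treated libraries and lay above every WT library in 4 (log2 fold change 2.16 ± 0.85, edgeR adjusted p = 0.585, and 0.99 with log2 molecules as a covariate).

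For other cytokines of the list the result depended on the fit. *Il2*, the growth factor of T cells, had a median of 3.02 in WT and 2.96 in GABA-treated libraries, with 23.5 in the highest GABA-treated library (log2 fold change 1.34 ± 0.69, edgeR adjusted p = 0.733). The chemokine genes *Ccl3*, *Ccl4* and *Ccl5*, whose products attract monocytes and T cells, had medians of 113, 218 and 83.8 in WT and 142, 174 and 94.3 in GABA-treated libraries. Their log2 fold changes were 0.34 ± 0.29, 0.16 ± 0.35 and 0.44 ± 0.36. *Xcl1*, which encodes an attractant of cross-presenting dendritic cells, had medians of 28.1 and 22.4. The sign for *Ccl4* and *Xcl1* was the opposite with DESeq2's size factors. With macrophage markers as a covariate, *Ccl3* had 0.99, *Ccl4* 1.11 (edgeR, adjusted p = 0.0486, and up to 0.999 over all alternatives) and *Ccl5* 1.29 (edgeR, adjusted p = 0.0394, and up to 0.999). After thinning to equal depth they had -0.02, -0.12 and 0.21.

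Genes of killing did not move together. Of 17 tested genes of cytotoxic granules and killing, 2 were higher at an unadjusted p under 0.05 (*Lamp1* and *Gzmb*; 11.8%, beside 5.99% of all genes). *Gzme* was lower, beside 0.900% of all genes. The list's median relative to all genes was -0.14. It ran from -0.34 to 0.02 when 1 library was left out, and was 0.29 with macrophage markers as a covariate. *Gzmb* encodes granzyme B, a protease that starts death in the target cell, and was the most abundant of the list. It had 70.8, 133 and 174 normalized molecules in WT and 109, 178 and 214 in GABA-treated libraries. The groups overlapped, with 3 GABA-treated libraries above every WT library (log2 fold change 0.50 ± 0.22, relative 0.29, edgeR adjusted p = 0.626). In the fit with log2 molecules as a covariate it was 0.20. *Gzma*, the gene of granzyme A, had 10.3, 15.0 and 34.0 against 6.36, 29.2 and 43.9, with GABA-treated libraries on both sides of the WT range. *Prf1* encodes perforin, the protein that opens the way for granzymes into the target cell. It had 0.00, 3.77 and 8.25 in WT and 0.00, 1.88 and 4.96 in GABA-treated libraries, a log2 fold change of -0.83 ± 0.60 (edgeR, adjusted p = 0.821). *Gzmk* had no molecule in any WT library and was too low to be tested. *Lamp1*, a lysosomal membrane protein found on cytotoxic granules, was 4.14 times as high in TAM libraries as in CD8+ T cell libraries. Its log2 fold change was 1.08 ± 0.43, 0.52 without GABA-treated replicate 1 and 0.01 with macrophage markers as a covariate. *Gzme* had a median of 0.572 in WT and 0.00 in GABA-treated libraries, and its unadjusted p was above 0.05 without GABA-treated replicate 1.

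**Figure D2:**
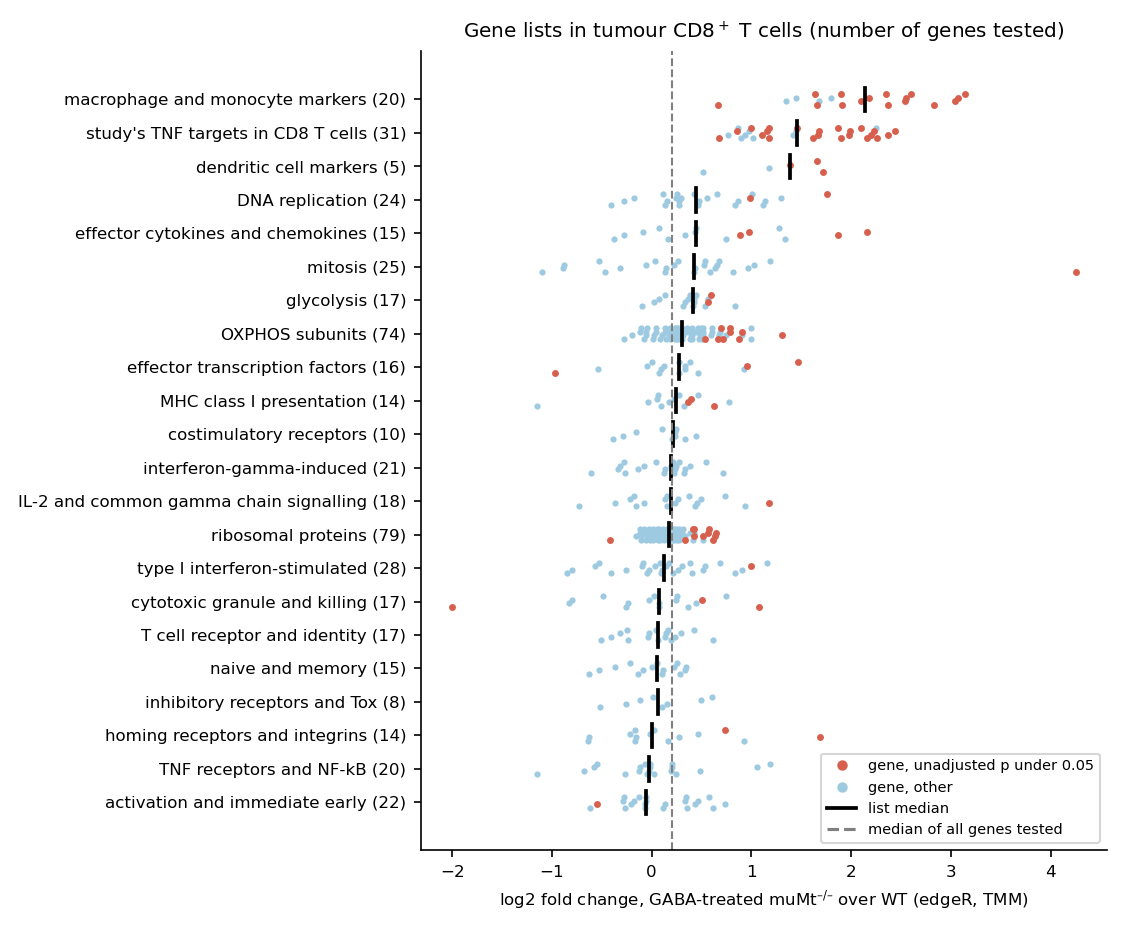
Log2 fold change of GABA-treated *muMt*-/- over WT libraries for each tested gene of the T cell programmes and of macrophage and dendritic cell markers, ordered by the list's median (black line), with the number of tested genes in brackets. Red points have an unadjusted p under 0.05, the dashed line is the median of all genes at 0.21, and the macrophage markers, the study's TNF targets and the dendritic cell markers lie farthest to its right, with medians of 2.14, 1.46 and 1.39.

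Inhibitory receptors were low and showed no difference beyond the spread. Of 15 genes, 8 could be tested and 0 had an unadjusted p under 0.05, with a median of -0.15 relative to all genes. *Pdcd1*, which encodes the inhibitory receptor PD-1 and was the most abundant of them, had 2.40, 13.0 and 21.7 in WT and 5.08, 8.95 and 15.0 in GABA-treated libraries. *Ctla4*, which competes with CD28 for its ligands, had 5.72, 9.77 and 17.7 against 1.86, 9.68 and 14.8. *Havcr2*, the gene of TIM-3, had medians of 5.0 and 6.77, with 3 GABA-treated libraries above every WT library. *Lag3* had medians of 0.376 and 0.394, and *Tigit* and *Tox* were too low to be tested. Without WT replicate 5 the list's relative median was -0.42, and with macrophage markers as a covariate it was 0.44, so that no direction of the list held across fits.

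Costimulatory, naive and memory genes were also without a gene at an unadjusted p under 0.05. The relative median was 0.01 over 10 costimulatory receptors and -0.15 over 15 naive and memory genes. *Tnfrsf9*, the receptor 4-1BB of activated T cells, had 19.2, 30.8 and 39.8 in WT and 11.4, 35.1 and 59.3 in GABA-treated libraries. *Icos*, a costimulator of the CD28 family, had medians of 19.3 and 21.0. *Tcf7*, a transcription factor of memory and stem-like T cells, had 2.21, 12.2 and 31.2 against 8.67, 10 and 15.5. *Klf2*, which keeps T cells quiescent and circulating, had medians of 9.0 and 13.4. Its log2 fold change was 0.28 ± 0.37, -0.33 after thinning and 1.02 against the 3 deeper WT libraries. In the fit with log2 molecules as a covariate it was 1.38, with an unadjusted p under 0.05. *Ccr7*, which brings naive T cells into lymph nodes, had medians of 14.6 in WT and 13.5 in GABA-treated libraries. *Il7r*, the receptor for the survival factor IL-7, had medians of 17.0 and 15.6. In each of these genes the groups overlapped.

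Among 16 effector transcription factors, 2 were higher at an unadjusted p under 0.05 (*Irf8* and *Prdm1*; 12.5%, beside 5.99% of all genes). *Irf4* was lower, beside 0.900% of all genes, and the relative median was 0.06. *Irf8* encodes an interferon regulatory factor found in activated CD8+ T cells and in myeloid cells. It had 14.4, 21.9 and 25.5 in WT and 25.4, 32.1 and 69.3 in GABA-treated libraries. All but the lowest GABA-treated library lay above every WT library, and that library missed the highest WT value by little. The log2 fold change was 0.96 ± 0.25, relative 0.75 (edgeR, adjusted p = 0.458), and 0.63 without GABA-treated replicate 1. In the fit with log2 molecules as a covariate it was 0.57. *Prdm1*, the gene of Blimp-1, a repressor that drives terminal effector cells, had 0.00, 1.03 and 2.25 against 1.56, 3.69 and 5.08, with 4 GABA-treated libraries above every WT library. *Prdm1* had a log2 fold change of 1.47 ± 0.64. It was 1.26 without GABA-treated replicate 1 and 1.19 without WT replicate 5, each with an unadjusted p above 0.05. *Irf4*, a factor induced in step with T cell receptor signal strength, had 2.40, 5.61 and 11.1 in WT and 1.24, 2.09 and 5.08 in GABA-treated libraries. Of the GABA-treated libraries, 4 lay below every WT library (log2 fold change -0.97 ± 0.45, relative -1.18, edgeR adjusted p = 0.671). Without WT replicate 5 the fold change was also -0.97, but the unadjusted p was above 0.05. *Tbx21* and *Eomes*, the T-box factors of effector and memory CD8+ T cells, had log2 fold changes of 0.01 ± 0.59 and -0.04 ± 0.50. *Id2*, which favours effector differentiation, had 0.28 ± 0.25.

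The medians of the activation list and of the NF-κB list lay below that of all genes, with 1 gene at an unadjusted p under 0.05. Of 22 tested immediate early and activation genes, 14 lay below that median, and the relative median was -0.26. When 1 library was left out, the relative median ran from -0.25 to -0.10. *Tnfaip3*, which encodes A20, a brake on NF-κB, was the gene of the list with an unadjusted p under 0.05. It had 26.4, 34.0 and 49.5 in WT and 13.3, 19.4 and 37.1 in GABA-treated libraries. Of these, 4 lay below every WT library, and the rest lay within its range (log2 fold change -0.55 ± 0.26, relative -0.76, edgeR adjusted p = 0.709). It was -0.50 without GABA-treated replicate 1, where the unadjusted p was above 0.05, and -0.18 with macrophage markers as a covariate. *Cd69* and *Nr4a1*, which report recent T cell receptor signals, had medians of 19.7 and 13.8 in WT and 12.2 and 11.6 in GABA-treated libraries, and log2 fold changes of -0.07 ± 0.36 and 0.33 ± 0.30, the latter above the median of all genes. With log2 molecules as a covariate the relative median of the activation list was 0.29, the opposite direction, against the 3 deeper WT libraries it was 0.04, and after thinning -0.24. Of 20 TNF receptor and NF-κB genes, 16 lay below the median of all genes and 0 had an unadjusted p under 0.05. Their relative median was -0.23, between -0.30 and -0.16 over all alternatives. The lowest p in it belonged to *Chuk*, a kinase that releases NF-κB, with 2.21, 3.90 and 6.86 against 0.00, 1.26 and 3.90 (log2 fold change -1.15 ± 0.57, edgeR adjusted p = 0.725).

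Genes of IL-2 and common γ-chain signalling had a relative median of -0.02 over 18 genes. *Il4ra*, the receptor chain for IL-4, was the gene with an unadjusted p under 0.05 (5.56% higher, beside 5.99% of all genes). Its log2 fold change was 1.18 ± 0.53, and 0.73 without GABA-treated replicate 1, where the p was above 0.05. *Il2ra* and *Il2rb*, the chains that bind IL-2, had medians of 12.6 and 24.0 in WT and 17.3 and 23.1 in GABA-treated libraries. Of 14 homing receptors and integrins, 2 were higher (*Ccr2* and *Itgb2*; 14.3%, beside 5.99% of all genes) and the relative median was -0.21. Without GABA-treated replicate 1 neither kept an unadjusted p under 0.05, and *Itgb2*, an integrin chain of leukocytes, had 0.74 ± 0.33, and 0.11 with macrophage markers as a covariate. *Ccr2*, the receptor by which monocytes and some T cells enter tissue, had 0.00, 4.84 and 17.1 in WT and 8.59, 11.9 and 50.2 in GABA-treated libraries. It was 4.62 times as high in TAM as in CD8+ T cell libraries, and its log2 fold change of 1.69 ± 0.54 was 1.06 without GABA-treated replicate 1 and 0.38 with macrophage markers as a covariate.

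Of 21 tested genes induced by interferon-γ, 0 had an unadjusted p under 0.05 (0.00%, beside 6.89% of all genes), and the relative median was -0.01. *Gbp2*, a GTPase induced by interferon-γ, had 11, 23.3 and 68.6 in WT and 10.9, 28.1 and 66.1 in GABA-treated libraries, nearly the same range. Of 28 type I interferon-stimulated genes, *Zbp1*, a sensor of nucleic acids, was higher at an unadjusted p under 0.05, and the relative median was -0.09. *Ifitm1*, the most abundant of them, had medians of 16.2 and 14.3. In MHC class I presentation, 3 of 14 genes were higher (*B2m*, *H2-D1* and *Tapbp*; 21.4%, beside 5.99% of all genes), with a relative median of 0.04. None of the 3 had an unadjusted p under 0.05 in the Wald test, and *Tapbp* alone kept it without GABA-treated replicate 1. *B2m*, the light chain of every MHC class I molecule, had 248, 270 and 305 in WT and 265, 309 and 409 in GABA-treated libraries. Of the GABA-treated libraries 4 lay above every WT library (log2 fold change 0.36 ± 0.14, relative 0.15, edgeR adjusted p = 0.585). Without GABA-treated replicate 1, which had 409, it was 0.20 and its unadjusted p was above 0.05.

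Genes of DNA replication and mitosis had medians above that of all genes, but few single genes stood out. Of 24 replication genes 18 lay above the median of all genes, and the relative median was 0.24. At an unadjusted p under 0.05, 2 were higher (*Rpa2* and *Mcm6*; 8.33%, beside 5.99% of all genes). *Mcm6*, a subunit of the replicative helicase, had 0.00, 7.79 and 8.84 in WT and 6.40, 10.4 and 14.1 in GABA-treated libraries, 4 of which lay above every WT library. *Rpa2*, a subunit of the protein that covers single-stranded DNA, had 0.00, 1.09 and 2.40 against 1.83, 2.51 and 7.81. *Pcna*, the sliding clamp, was the most abundant of the list, with medians of 15.0 and 14.9. Of 25 mitosis genes 15 lay above the median of all genes and the relative median was 0.21. *Cdc20*, an activator of the anaphase-promoting complex, had no molecule in any WT library and 0.00, 1.53 and 3.81 in GABA-treated libraries. Against the floor of 3 counts over the WT group (0.654 normalized molecules), the *Cdc20* mean was at least 1.54 higher on the log2 scale. The median of the mitosis list was 0.42 with *Cdc20* as fitted and 0.42 with it at this bound. *Mki67*, the proliferation marker Ki-67, went the other way, with 0.00, 9.61 and 15.5 in WT and 4.57, 5.58 and 8.26 in GABA-treated libraries (log2 fold change -0.47 ± 0.40, edgeR adjusted p = 0.862). For *Mki67* it was -0.79 against the 3 deeper WT libraries. In the fit with log2 molecules as a covariate it was -1.16, with an unadjusted p under 0.05. With log2 molecules as a covariate the relative medians were -0.09 for replication and -0.35 for mitosis, and after thinning to equal depth they were 0.27 and 0.00. Against the 3 deeper WT libraries they were 0.20 and -0.16, so that the direction of replication turned in the covariate fit alone.

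Of 74 tested subunits of oxidative phosphorylation 9 were higher at an unadjusted p under 0.05 (12.2%, beside 5.99% of all genes), 0 were lower, and 53 lay above the median of all genes. The relative median was 0.10, 0.15 after thinning and 0.03 with log2 molecules as a covariate. In that covariate fit none of the 9 kept an unadjusted p under 0.05, and in the Wald test *Cox4i1*, *Cox5a*, *Cox6a1* and *Ndufc1* kept it. *Cox5a* encodes a subunit of cytochrome c oxidase, the last complex of the respiratory chain. It had 5.50, 13.7 and 18.3 in WT and 15.0, 22 and 26.5 in GABA-treated libraries. All but 1 of the GABA-treated values lay above every WT value (log2 fold change 0.87 ± 0.26, relative 0.66, edgeR adjusted p = 0.458, and 0.55 with log2 molecules as a covariate). *Cox4i1*, another subunit of that complex on chromosome 8 from 120668225 to 120674209, was named after its values were seen. It had 1.83, 17.6 and 19.9 in WT and 21.9, 26.3 and 27.6 in GABA-treated libraries. No WT library reached a GABA-treated library, and WT replicates 1 and 2, at 1.83 and 9.62, were far below the rest. Its log2 fold change was 0.91 ± 0.27, relative 0.70 (edgeR, adjusted p = 0.458), 0.82 without GABA-treated replicate 1 and 0.48 with log2 molecules as a covariate. The other 7 were *Ndufc1*, *Cox6a1*, *Ndufa3*, *Uqcrb*, *Atp5g3*, *Atp5g1* and *Ndufb9*, with log2 fold changes from 0.53 (*Atp5g3*) to 1.31 (*Ndufc1*). *Atp5b*, the catalytic subunit of ATP synthase and the most abundant of the list, had medians of 33.3 and 38.7 and did not pass.

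Of 17 glycolysis genes 13 lay above the median of all genes, with a relative median of 0.20. At an unadjusted p under 0.05, 2 were higher (*Pgk1* and *Tpi1*; 11.8%, beside 5.99% of all genes). Neither kept it in the Wald test. With log2 molecules as a covariate their log2 fold changes were 0.15 and -0.10. *Pgk1*, which makes ATP in glycolysis, had 14.4, 28.0 and 46.9 in WT and 31.1, 38.0 and 53.9 in GABA-treated libraries. Only 1 GABA-treated library exceeded every WT library (log2 fold change 0.60 ± 0.24, relative 0.39, edgeR adjusted p = 0.610). *Gapdh*, the most abundant enzyme of the list, had medians of 81.3 and 113 (0.43 ± 0.22). The list's relative median was -0.05 with log2 molecules as a covariate, -0.01 against the 3 deeper WT libraries alone and 0.24 after thinning. It ran from 0.10 to 0.43 when 1 library was left out.

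Ribosomal proteins had a median near that of all genes and a share of higher genes like that of oxidative phosphorylation. Of 79 tested genes 10 were higher (12.7%, beside 5.99% of all genes) and 1, *Rps26*, was lower at an unadjusted p under 0.05. The relative median was -0.03. *Rpl35a*, of the large subunit, had 95.3, 103 and 122 in WT and 105, 126 and 252 in GABA-treated libraries. Of these, 5 lay above every WT library (log2 fold change 0.62 ± 0.18, relative 0.41, edgeR adjusted p = 0.458), and without GABA-treated replicate 1, which had 252, it was 0.33. *Rpsa*, the most abundant, had 278, 310 and 343 in WT and 184, 243 and 280 in GABA-treated libraries, with 5 GABA-treated libraries below every WT library, and a log2 fold change of -0.16 ± 0.15, relative -0.37, or -0.35 with DESeq2's size factors. Ribosomal protein genes have many processed copies in the genome, and reads may be split between them.

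The smallest p of all genes was that of *Gm6654*, on chromosome 6 from 146647177 to 146647802, a predicted gene whose reads may come in part from other copies of its sequence, so that its value is uncertain. It had 93.1, 193 and 341 normalized molecules in WT, and 69.4, 82.0 and 108 in GABA-treated libraries. Of the GABA-treated libraries 4 lay below every WT library, and 5 WT libraries lay above every GABA-treated library. The log2 fold change was -1.07 ± 0.21, relative -1.28 (edgeR, adjusted p = 0.0975, and from 1.88e-08 to 0.999 over all alternatives). In the fit with log2 molecules as a covariate it was -0.30, with an unadjusted p above 0.05, against the 3 deeper WT libraries -0.59, and after thinning -1.41. The WT libraries with fewer molecules, replicates 1 to 3, had 235, 341 and 299, and the deeper replicates 4 to 6 had 145, 151 and 93.1. *Snora81*, a small nucleolar RNA inside a host gene, had 119, 273 and 456 in WT and 48.3, 101 and 275 in GABA-treated libraries, with 4 GABA-treated libraries below every WT library. Its log2 fold change of -0.87 ± 0.29 (edgeR, adjusted p = 0.458) was -0.01 with log2 molecules as a covariate and -0.47 against the 3 deeper WT libraries. After thinning it was -1.11 (edgeR, adjusted p = 1.46e-05, and up to 0.999 over all alternatives).

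Other genes of at least 5 normalized molecules with the largest negative fold changes at an unadjusted p under 0.05 were *Commd7*, *Smap1*, *Pik3r1*, *Crem*, *Gramd1a* and *Nek7*. *Smap1*, a GTPase-activating protein in clathrin-dependent transport, had 4.81, 9.50 and 11.3 in WT and 2.54, 3.81 and 4.57 in GABA-treated libraries. Every GABA-treated library lay below every WT library (log2 fold change -1.09 ± 0.35, relative -1.29, edgeR adjusted p = 0.458). *Crem*, a transcription factor of the cyclic AMP response, had 6.63, 7.76 and 24.0 against 3.18, 4.26 and 6.25. Here too the groups did not overlap, with WT replicate 2 at 24.0 far above the rest (log2 fold change -0.90 ± 0.37, -0.33 with log2 molecules as a covariate and -0.89 after thinning). *Pik3r1*, the regulatory subunit of the PI3 kinase of antigen and cytokine receptors, had 4.42, 6.53 and 18.3 against 2.48, 3.42 and 6.40, with 5 GABA-treated libraries below every WT library. *Commd7* had a log2 fold change of -1.16 ± 0.45 (-0.77 without WT replicate 5, where the unadjusted p was above 0.05), *Gramd1a*, which moves cholesterol, -0.89 ± 0.43 (-0.75 without GABA-treated replicate 1 and -0.92 without WT replicate 5, each also above 0.05), and *Nek7*, a kinase of the NLRP3 inflammasome, -0.84 ± 0.38.

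Among all genes tested, every GABA-treated library lay above every WT library for 11 (0.165%) and below for 10 (0.150%). Those above, named after their values were seen, included *Alg5*, *Ap2s1*, *Cmtm3*, *Cox4i1*, *Crip1*, *Klhdc3*, *Ric8a*, *Scfd1*, *Tigd2* and *Txnl4a*. Those below were *Atf5*, *Chrac1*, *Crem*, *Gps2*, *Mtmr12*, *Phf3*, *Psmd2*, *Rps27rt*, *Smap1* and *Snora64*. *Crip1*, a small zinc-binding protein of lymphocytes, had 20.2, 27.6 and 32.0 in WT and 33.7, 45.1 and 75.7 in GABA-treated libraries. Its log2 fold change was 1.01 ± 0.25, relative 0.80 (edgeR, adjusted p = 0.458), and 1.03 without GABA-treated replicate 1.

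**Figure D3:**
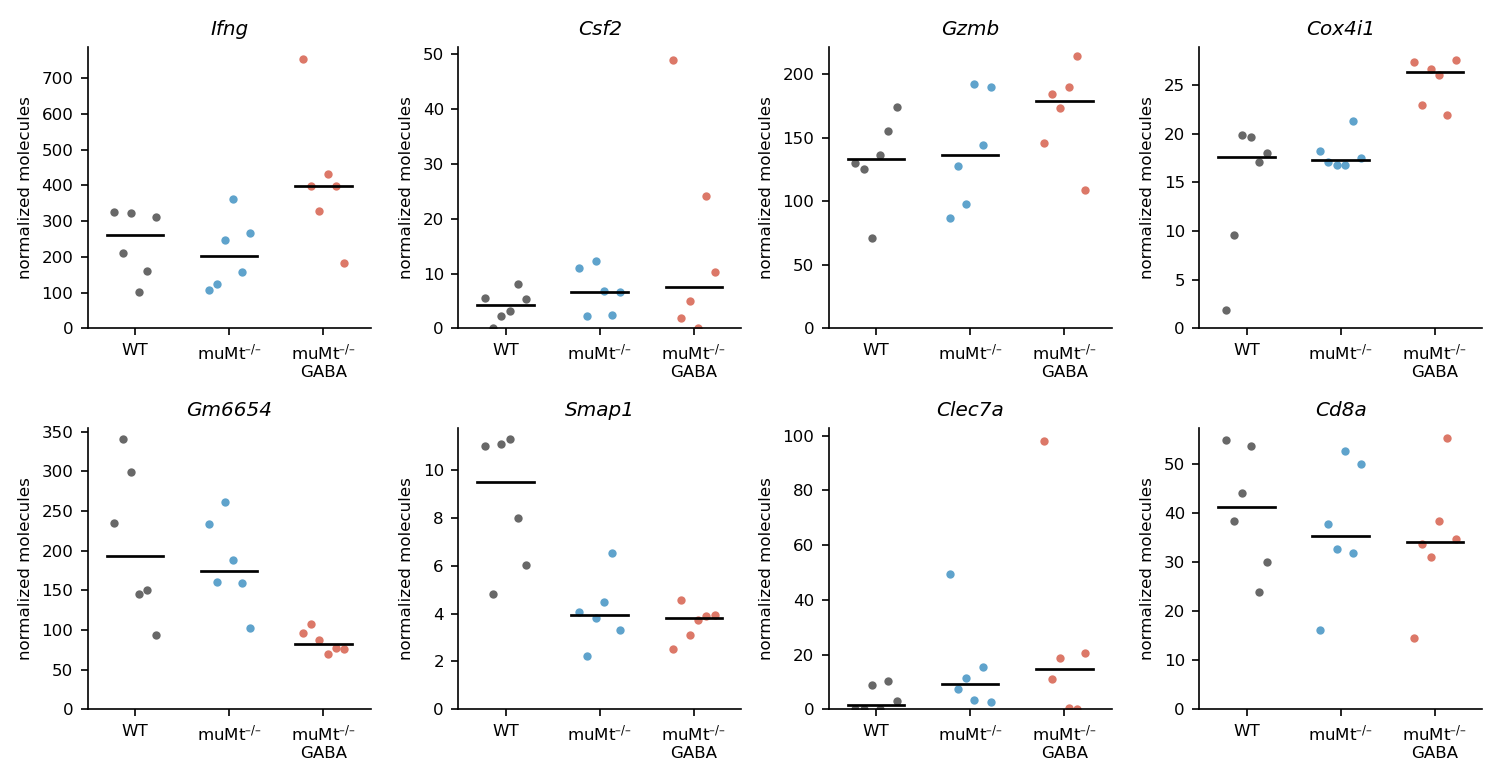
Normalized molecules per library of 8 genes in WT, *muMt*-/- and GABA-treated *muMt*-/- mice, with 1 point for each library and a line at the median. *Cox4i1* and *Smap1* do not overlap between WT and GABA-treated mice, *Ifng*, *Csf2* and *Clec7a* have their highest value in GABA-treated replicate 1 (754, 48.9 and 97.9), and *Cd8a* overlaps in all groups.

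Among genes of at least 5 normalized molecules, the largest positive fold changes were those of genes with higher levels in TAM than in CD8+ T cell libraries. Of 20 tested macrophage and monocyte markers 16 were higher at an unadjusted p under 0.05 (80.0%, beside 5.99% of all genes) and 0 were lower. All 20 lay above the median of all genes, and the relative median was 1.93. It was 1.55 without GABA-treated replicate 1, 2.97 without WT replicate 5 and 1.32 with log2 molecules as a covariate. In that covariate fit *Fcgr1* alone of the 16 kept an unadjusted p under 0.05. In the Wald test *Lyz2*, *Cybb*, *C1qb*, *Mpeg1*, *Csf1r*, *C1qc* and *Ctsd* did not keep it. For 19 of the 20 tested markers, the level in TAM libraries was 4 times that in CD8+ T cell libraries or more. Over all genes, 199 of 6663 tested genes (2.99%) had such a ratio, and it was 71 of the 399 higher genes (17.8%) and 0 of the 60 lower genes. *Clec7a* encodes dectin-1, a receptor for fungal glucans on macrophages and dendritic cells, and had the largest fold change among genes of at least 5 normalized molecules. It had 0.00, 1.5 and 10.3 in WT and 0.00, 14.8 and 97.9 in GABA-treated libraries. In 4 GABA-treated libraries it lay above every WT library, while the lowest had no molecule (log2 fold change 2.83 ± 0.81, edgeR adjusted p = 0.458). Without GABA-treated replicate 1 it was 1.49 with an unadjusted p above 0.05, and with macrophage markers as a covariate 0.17. Others among the largest were *Apoe*, a lipid carrier of macrophages (2.60 ± 0.78), and *Itgam*, the integrin chain CD11b (2.37 ± 0.80). With them were *Fn1*, fibronectin (2.20 ± 0.76), *Cybb*, the oxidase of the phagocyte burst (2.10 ± 0.76), *Mt1*, a metallothionein (2.09 ± 0.65), and *Cebpb*, a transcription factor of myeloid cells (1.99 ± 0.68). Without GABA-treated replicate 1, *Fn1* had 1.32, *Cybb* 1.59, *Mt1* 1.08 and *Cebpb* 1.35, all with an unadjusted p above 0.05. With macrophage markers as a covariate, *Itgam*, *Fn1*, *Cybb* and *Cebpb* had log2 fold changes of -0.01, -0.28, 0.11 and 0.27. In the same fit *Apoe* had 0.93 and *Mt1* 0.77. *Itgam*, *Cybb* and *Apoe* are themselves among the markers summed in that covariate, so that a smaller fold change is in part built in for them. Of 5 tested dendritic cell markers 3 were higher (*Cd74*, *H2-Aa* and *Itgax*; 60.0%, beside 5.99% of all genes), and the relative median was 1.18. It was 2.39 without WT replicate 5, 0.84 without GABA-treated replicate 1 and -0.21 with macrophage markers as a covariate. None of the 3 genes kept an unadjusted p under 0.05 in the Wald test or with log2 molecules as a covariate. *Cd74*, which guides MHC class II molecules to the endosome, had a log2 fold change of 1.72 ± 0.62, and of 3.2 without WT replicate 5. *H2-Aa*, a chain of MHC class II, had 1.66 ± 0.63, and 3.45 without WT replicate 5. Without GABA-treated replicate 1 it was 0.96, and its unadjusted p was above 0.05. *Xcr1*, *Clec9a* and *Cd209a* had no molecule in any of the 12 libraries.

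The TNF target genes that the study lists for CD8+ T cells were chosen by it on these samples, so that their direction is no independent evidence. Of 31 tested genes 22 were higher at an unadjusted p under 0.05 (71.0%, beside 5.99% of all genes) and 0 were lower, and the relative median was 1.25. It was 1.01 without GABA-treated replicate 1, 1.61 without WT replicate 5 and 0.09 with macrophage markers as a covariate. The list shares genes with the markers summed in that covariate, *Itgam*, *Cybb* and *Csf1r* among them, so that part of this fall is built in. With log2 molecules as a covariate the relative median was 0.91, and of the 22 *Cyba* and *Tgm2* kept an unadjusted p under 0.05. A TAM level at least 4 times the CD8+ T cell level was found for 12 of the 31 tested genes. *Cyba*, a chain of the phagocyte oxidase, had the smallest p of the list, with 2.40, 14.3 and 22.9 in WT and 19.2, 26.8 and 48.3 in GABA-treated libraries. Of these, 4 lay above every WT library (log2 fold change 1.18 ± 0.30, relative 0.97, edgeR adjusted p = 0.458, and 0.68 with macrophage markers as a covariate). *Fth1*, the heavy chain of ferritin and the most abundant of the list, had 18.3, 45.2 and 128 in WT, the highest in replicate 5, and 45.3, 102 and 222 in GABA-treated libraries. Its log2 fold change of 1.11 ± 0.35 was -0.03 with macrophage markers as a covariate. Whether macrophage RNA is the source of these values was not tested.

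Other cell types gave few genes. *Fcer1g*, the tested gene of the NK and γδ T cell list, which macrophages also express, had medians of 3.13 and 18.1 (log2 fold change 1.66 ± 0.55, and 2.67 without WT replicate 5), and *Ncr1* and *Klra8* had no molecule in any of the 12 libraries. Of 5 tested CD4 and regulatory T cell markers *Il17a* was lower at an unadjusted p under 0.05, with 0.00, 0.891 and 7.33 in WT and 0.00, 0.00 and 1.83 in GABA-treated libraries. *Foxp3* had no molecule in any GABA-treated library, and *Cd4* had none in any WT library. Neither of the 2 tested neutrophil markers nor of the 2 tested tumour cell markers had an unadjusted p under 0.05. Of 4 stromal genes *Dcn*, a matrix proteoglycan, was lower (-1.69 ± 0.83). It was -3.28 without GABA-treated replicate 1, and -1.45 without WT replicate 5, where the unadjusted p was above 0.05. Haemoglobin genes were too low to be tested, with 1 WT library, replicate 2, at a summed 40.9. *Malat1*, a nuclear RNA whose share rises in damaged cells, had medians of 230 and 163 (log2 fold change -0.29 ± 0.19), and the relative median of 3 nuclear RNAs was -0.10. The relative median of the 2 tested Y-linked genes was -0.13, and that of 17 T cell receptor and identity genes, 0 of which had an unadjusted p under 0.05, was -0.14.

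GABA receptors and the genes that make, carry and break down GABA were at the limit of detection. Of 30 genes 0 passed the filter on low values, and 25 had no molecule in any of the 12 libraries. The most abundant was *Gabbr1*, a subunit of the GABA_B receptor, with 1.03, 2.02 and 3.43 normalized molecules in WT and 0.00, 0.620 and 0.914 in GABA-treated libraries. Every GABA-treated library lay below every WT library, at numbers below the filter, so that it was not tested, and *muMt*-/- mice without GABA had 0.00 to 0.818. Where a group had no molecule, the limit was 3 counts over the group, which correspond to 0.654 normalized molecules in WT and 0.355 in GABA-treated mice.

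Values of the *muMt*-/- mice without GABA stand beside these, with the same WT libraries as controls, so that the 2 comparisons with WT are not independent. Macrophage markers were high in both *muMt*-/- groups, with a summed level of 67.3 to 476 (median 93.7) without GABA. The median log2 fold change of their list was 2.26 for *muMt*-/- over WT mice and -0.03 for GABA-treated over untreated *muMt*-/- mice. *Ifng* had 107, 202 and 362 in *muMt*-/- mice without GABA, near the WT values (log2 fold change -0.05). The direct difference of GABA-treated from untreated *muMt*-/- mice was 1.02 for *Ifng* (edgeR, adjusted p = 0.999). *Gm6654* had 102, 175 and 261 without GABA, a log2 fold change of -0.02 from WT and of -1.04 between the *muMt*-/- groups (edgeR, adjusted p = 0.119). *Cox4i1* had 16.8, 17.3 and 21.3 without GABA, and it was 0.55 higher with GABA (edgeR, adjusted p = 0.999). *Smap1* and *Crem* were as low without GABA as with it, with medians of 3.93 and 4.43 and differences between the *muMt*-/- groups of -0.12 and -0.07. *Tnf* differed by 2.21 between *muMt*-/- and WT mice and by -0.05 between the *muMt*-/- groups. *Ccl5*, at a median of 44.2 without GABA, was 1.21 higher with GABA (edgeR, adjusted p = 0.999), while against WT its fold change was 0.44. Of all genes tested, 247 had an unadjusted p under 0.05 between the *muMt*-/- groups.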

How the data were processed

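The authors mapped reads with STAR to mm10 and deposited, for each gene and library, the count of distinct molecules, without normalization. Library depth was 22896 to 98015 molecules, which limits precision most for genes with few molecules. Normalized molecules are counts over DESeq2 size factors of the 18 CD8+ T cell libraries, and 6663 genes with a mean above 1 were tested. The main test was edgeR 4.0.16 (quasi-likelihood F-test, TMM, 1 coefficient per group, 18 libraries, Benjamini-Hochberg adjustment, threshold 0.05). Depth was tested by exact permutation of labels (924 arrangements, both sides counted). Other software was R 4.3.3, DESeq2 1.42.0 and Python 3.11.15 with scipy 1.17.1, pandas 2.3.3, matplotlib 3.10.9 and numpy 2.4.6. The fits were tested on simulated data. Of 24781 gene names, 24127 were found in RefSeq (GRCm38, the same assembly as mm10), which gave coordinates. Constant genes of the T cell receptor and of immunoglobulins, and spike-in RNA, were not analysed here, and a few genes that the rules below would name are not reported here and were left out of the search for values far from their group.

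Members and lists were chosen with earlier results of these data known, and lists were written from general knowledge except the study's TNF targets. Genes were named by a rule: 35 genes of T cell function, the 8 largest fold changes in each direction among genes with an unadjusted p under 0.05 and a mean of at least 5 normalized molecules, the most abundant member of each list and its tested member with the smallest p, and any gene with an adjusted p under 0.05. Other genes are members of a list with an unadjusted p under 0.05, or were named after their values were seen. Alternatives were DESeq2's size factors and total molecules in edgeR, the Wald test, filterByExpr, no filter, a mean above 5, the 12 libraries alone, a robust fit, log2 molecules as a covariate, thinning to 22896 molecules (seed 1), the replicate block and leaving out each library. The summed macrophage marker level as a covariate, and the 3 deeper WT libraries alone, were chosen after the data were seen. Each mouse gave 1 library, so that the tests measure the spread between mice and libraries together.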

Additional observations from a re-analysis of the deposited data

Results flagged for a closer look

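Of 251 sets of 6 values of a group, for summed list levels and named genes, 40 (15.9%) held a library whose gap to its nearest neighbour, over the group's whole range, exceeded the critical value of Dixon's test for 6 values. For normally distributed values, chance gives such a gap in about 1 in 20 groups. That distribution was not tested for these numbers of molecules, and each library found was the highest of its group. Sets that share genes or libraries are also not independent, so that the 15.9% cannot be weighed against 1 in 20. GABA-treated replicate 1 gave 12 of these values and WT replicate 5 gave 11.

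WT replicate 5 was the highest of its group in the summed level of the study's TNF targets (396, the next 163), of macrophage and monocyte markers (111, the next 45.1) and of dendritic cell markers (139, the next 42.0). It was also the highest in NK and γδ T cell markers (16, all of it *Fcer1g*, which macrophages also express, the next 5.50) and in interferon-γ-induced genes (349, the next 266). Among single genes it was the highest in *Fth1* (128, the next 48.1), *Cd74* (62.9, the next 19.9), *Fn1* (27.4, the next 9.01), *Fcer1g* (16, the next 4.51), *Cybb* (11.4, the next 1.83) and *Itgam* (6.86, the next 2.25).

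GABA-treated replicate 1 was the highest of its group in tumour cell and epithelial markers (29.2, the next 6.82), of which *Spp1* had 18.4 and *Cdh1* 10.8. The 7 keratin and claudin genes of that list had no molecule in any of the 12 libraries. Among single genes GABA-treated replicate 1 led in *Clec7a* (97.9, the next 20.5), *Mt1* (36.2, the next 7.43), *Spp1* (18.4, the next 4.96), *Cdh1* (10.8, the next 1.86), *Cxcr2* (5.08, the next 0.914), *Dcn* (4.45, the next 0.620), *Il4ra* (12.7, the next 6.31), *Irf8* (69.3, the next 37.8), *Xcl1* (59.7, the next 28.5), *B2m* (409, the next 312) and *Rpl35a* (252, the next 132).

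Other libraries gave fewer such values. WT replicate 6 was the highest of its group in neutrophil markers (12.8, the next 1.14), *S100a8* (9.01, the others 0.00), *Il2ra* (26.3, the next 13.7) and *Rpl35a* (122, the next 104). WT replicate 2 was the highest in red cell markers (40.9, the others 0.00), *Crem* (24.0, the next 9.17) and *Tnfrsf1b* (21.6, the next 12.4). WT replicate 4 led in IL-2 and common γ-chain signalling (253, the next 196) and in *Gzma* (34.0, the next 16.8), and WT replicate 1 in *Pik3r1* (18.3, the next 8.26). GABA-treated replicate 2 led in *Snora81* (275, the next 130), *Pik3r1* (6.40, the next 3.94) and *Il17a* (1.83, the others 0.00), and GABA-treated replicate 6 in type I interferon-stimulated genes (257, the next 182) and *Ddx3y* (11.8, the next 5.72). GABA-treated replicate 3 led in *Apoe* (32.2, the next 7.63) and GABA-treated replicate 4 in *Tnfrsf1b* (12.4, the next 7.81).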

How the results depend on the processing

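The adjusted count, 0 in edgeR with TMM, was 1 with DESeq2's size factors, with total molecules, with the Wald test, with the 12 libraries alone and with the replicate block, each time *Gm6654*. It was 20 after thinning, 64 without a filter, and 14 with macrophage markers as a covariate. Leaving out 1 library at a time gave 0 to 1. The count at an unadjusted p under 0.05, 459 in the reported fit, was 222 with the Wald test, 248 with log2 molecules as a covariate, 229 with the 3 deeper WT libraries, 900 without a filter (13109 genes tested), 113 with filterByExpr (1266 genes tested) and 137 with a mean above 5 (1883 genes tested), the latter 3 with other numbers of genes by construction. It ran from 314 (without GABA-treated replicate 1) to 594 (without WT replicate 6) when 1 library was left out. For the other alternatives, the cause was not tested. The ratio of molecules ran from 1.70 to 2.19 and that of genes detected from 1.23 to 1.36 without 1 library, all with an exact permutation p under 0.05, and thinning gave 1.03 for genes detected.

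Replicate numbers did not pair the libraries: correlations of deviations of same-numbered libraries ran from -0.18 to 0.101, and 0 of 6 WT libraries correlated best with its own number. With the replicate block there were 443 genes at an unadjusted p under 0.05.

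Of 94 tested named genes, 44 had the other sign under at least 1 of 25 alternatives, 33 of them with a log2 fold change within 0.5 of 0 as reported, and 19 had an adjusted p under 0.05 at least once. List medians moved by over 1 SD in 62 of 720 cases, in 24 of 29 lists. The depth of the WT libraries limits genes of few molecules most, and depth, genotype and GABA differ together between the groups.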
